A study of Rattus norvegicus with 6 samples.

Results

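Interleukins and their receptors were examined on arrays of the neonatal rat ovary. Members were the non-control probes whose gene symbol, read from the RefSeq accession of the probe, begins with Il and a number, with 1 probe kept for each gene, the one with the highest mean over the 6 arrays. This gave 69 genes of 26903 gene names on the arrays, and 77 of 30367 probes. They comprised 33 ligands, 31 receptor chains and 5 inhibitors of signaling. Il13ra2, a decoy receptor, was counted among the receptor chains. Ovaries were taken on PND 7 from Wistar pups that had been injected intraperitoneally on PNDs 3 and 5 with either 0.05 mg/kg LPS or saline, and 3 arrays were hybridised for each treatment. LPS (lipopolysaccharide), here from Salmonella, is a bacterial wall component sensed by the receptor TLR4. The whole organ was used, so a change in the number of cells of a type and a change in the RNA of each cell cannot be told apart. The methods describe the arrays as biological replicates from more than 1 litter per treatment. Treatment was allocated by whole litter, so differences between litters and between treatments cannot be told apart. Which animals and litters stand behind each array was not used here, so the p-values measure the spread between these arrays.

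Interleukins are small secreted proteins through which immune cells, epithelia and stroma signal to each other. They act on receptors built from a chain that recognises the ligand and a chain, often shared between several interleukins, that carries the signal. Soluble antagonists, binding proteins and decoy receptors limit this signal. In the ovary, interleukins are best known from resident macrophages and from the inflammation-like events around ovulation, whereas the ovary of a newborn rat holds mainly primordial and early growing follicles.

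Signals are given as the log2 of the background-subtracted signal minus the 75th percentile of the array, so that a value of 0 is the 75th percentile. A gene was taken as measured on an array where the scanner software judged its probe well above background. Levels of different probes are not comparable with each other, and only the 6 values of a single probe are compared. All 6 arrays lay on 1 slide, 0 spots were saturated, and between 66.3% and 76.0% of the spots of an array were well above background, with each LPS array (72.4% or more) above each saline array (70.4% or less). Markers of the ovary were present on every array, with summed levels of 15.7 to 64.9 for granulosa cells and 17.7 to 48.7 for oocytes, in units of the 75th percentile of the array. Saline replicates 2 and 3 stood apart through markers of the adrenal gland. The summed level of 8 adrenal cortex markers was 229 and 300 on these arrays and 5.08 to 16.3 on the other 4, and that of 8 adrenal medulla markers was 94.4 and 57.7 against 3.49 to 6.35. Cyp11b1, Akr1b7 and Mc2r, genes of adrenal steroid synthesis and of the ACTH receptor, had no signal well above background in the LPS group.

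Measured interleukin genes were mostly receptor chains. Of the 69 genes, 26 (37.7%) were well above background on all 6 arrays, 8 on some arrays and 35 (50.7%) on no array, while of all gene names 59.1% were measured on all 6 arrays and 25.9% on no array. Among the 31 receptor chains 16 were measured on all arrays, whereas this held for 7 of the 33 ligands and 3 of the 5 inhibitors. LPS replicates 1, 2 and 3 had 33, 32 and 32 measured members, and the saline replicates had 31, 27 and 27.

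**Figure D1:**
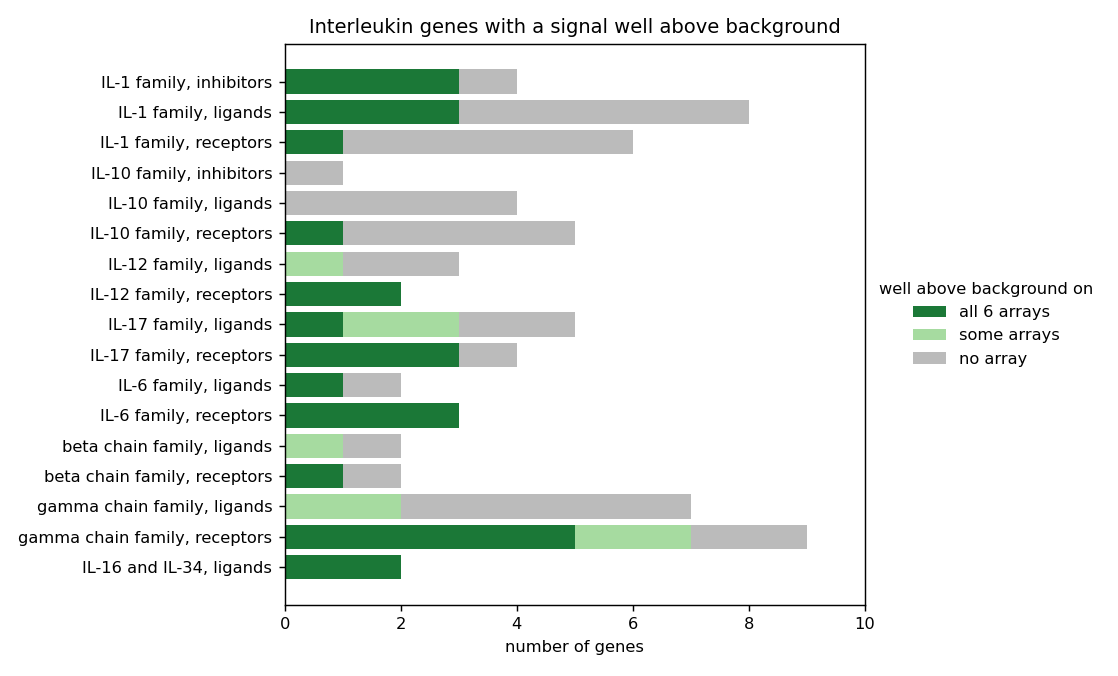
Number of interleukin genes (horizontal axis) by family and role, coloured by whether the probe was well above background on all 6 arrays, on some arrays or on no array. All 3 IL-6 family receptor chains and both IL-12 family receptor chains were measured throughout, and 0 of 7 gamma chain family ligands were.

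The ligands usually associated with acute inflammation had no signal well above background in either group. Il1a and Il1b, the IL-1 cytokines, Il6, an inducer of the acute phase response, and Il10, which restrains macrophages, were not well above background on any of the 6 arrays. The same held for Il7, a survival factor for lymphocytes, Il22, which acts on epithelia, Il12a and Il12b. The array signal of Il1b, before log2 and scaling, was 112, 61.4 and 47.2 in the LPS group and 50.6, 81.2 and 47.8 in the saline group, and that of Il6 was 26.7, 31.9 and 30.4 against 24.6, 59.0 and 31.4. These unscaled signals overlapped between treatments for both genes. After scaling, Il1b still overlapped, whereas Il6 was lower in the LPS group without overlap, as were 54.9% of gene names on no array. No fold change is given for a gene that was not well above background in either group.

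The 7 ligands measured on all arrays were Il33, Il18, Il36b, Il11, Il17b, Il16 and Il34. Il15, a growth factor of natural killer cells, Il13, Il5, Il17c, Il25 and Il23a were measured on some arrays, with 5 of 6 arrays for Il15. Receptors and ligands were not always measured together. Il11, its receptor chain Il11ra1 and the signaling chain Il6st were all measured on every array, as were Il17b and its receptor Il17rb, and Il18, its receptor Il18r1 and its binding protein Il18bp. Il33 was measured on every array while its receptor Il1rl1, also called ST2, was well above background on none. In the opposite way, Il6r was measured without Il6, Il10rb without Il10 or Il10ra, Il3ra without Il3, Il12rb1 and Il12rb2 without Il12a or Il12b, and Il2rg, the shared gamma chain, without Il2, Il7, Il9 or Il21. Il1r2, the decoy receptor of IL-1, and Il1rap, the chain shared by IL-1 receptors, were well above background on no array by their brightest probe. A second Il1rap probe was well above background on LPS replicate 1 alone.

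Between the treatments, 0 interleukin genes were higher and 3 were lower in the LPS group when a 2-fold difference with an unadjusted p under 0.05 was required. Over all gene names 0.539% passed as higher and 1.03% as lower. The 3 genes were Il18, Il18bp and Il1rapl2, and the last was well above background on no array. Under the same 2-fold criterion, values without scaling between arrays gave 3 higher (Il17rb, Il1rn and Il36rn) and 0 lower, while the median of all gene names shifted upward by 0.38. The share of all gene names that passed without scaling is not given here, so this count has no background beside it. With the replicate number as a block, which changed none of the 2-fold calls of the main fit, the shares of all gene names were 0.729% and 1.22%. After Benjamini-Hochberg adjustment in limma, 0 members and 0 of all gene names had an adjusted p under 0.05. At an unadjusted p under 0.05 alone, 0 members were higher and 17 lower, beside 2.22% and 13.7% of gene names. The smallest two-sided p that an exact permutation test allows with 3 arrays per group is 0.1.

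Most of these 17 lower genes carried no measured signal. Among the 35 members on no array, 14 had an unadjusted p under 0.05 for lower values and 16 had groups that did not overlap, beside 46% and 54.9% of gene names on no array. The median difference of these members was -0.54, and that of all gene names on no array was -0.56. The level at which these silent members lay was itself lower on the LPS arrays, with medians of -6.73, -6.96 and -7.46 against -6.56, -6.27 and -6.61 in the saline group. The unscaled signal behind it did not separate the treatments, with medians of 32.3, 33.2 and 31.2 in the LPS group and 25.5, 59.9 and 32.8 in the saline group.

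Among the 26 measured members, 13 were higher and 13 lower in the LPS group, beside 52.8% higher among all gene names measured on all arrays. The median difference was -0.00, beside 0.01 for those gene names, and it was 0.37 without scaling between arrays. The limma p was under 0.05 for 0 higher and 3 lower genes (Il33, Il18 and Il18bp), where the background was 1.5% and 2.4%. With the replicate number as a block this became 2 higher (Il17rb and Il1rn) and 2 lower (Il18 and Il18bp) in limma, beside 2.67% and 3.34% of these gene names, while Il33 no longer passed. Il17rb and Il1rn were each higher on the LPS array of all 3 same-numbered pairs. Both had been picked by that p, so the pairs give no separate support. Il6r and Il36rn were also higher in all 3 pairs without passing with the block. The adjusted p-values in limma with the block were 0.198 for Il17rb, 0.219 for Il1rn and 0.263 for Il33. At 2-fold 0 of the 26 were called higher, beside 0.0692% of such gene names, and Il18 and Il18bp were called lower, beside 0.869%. Groups did not overlap for Il6r, which was higher, and for Il18bp, Il10rb, Il12rb1 and Il36b, which were lower, and such separation was found for 5.17% and 5.99% of gene names.

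**Figure D2:**
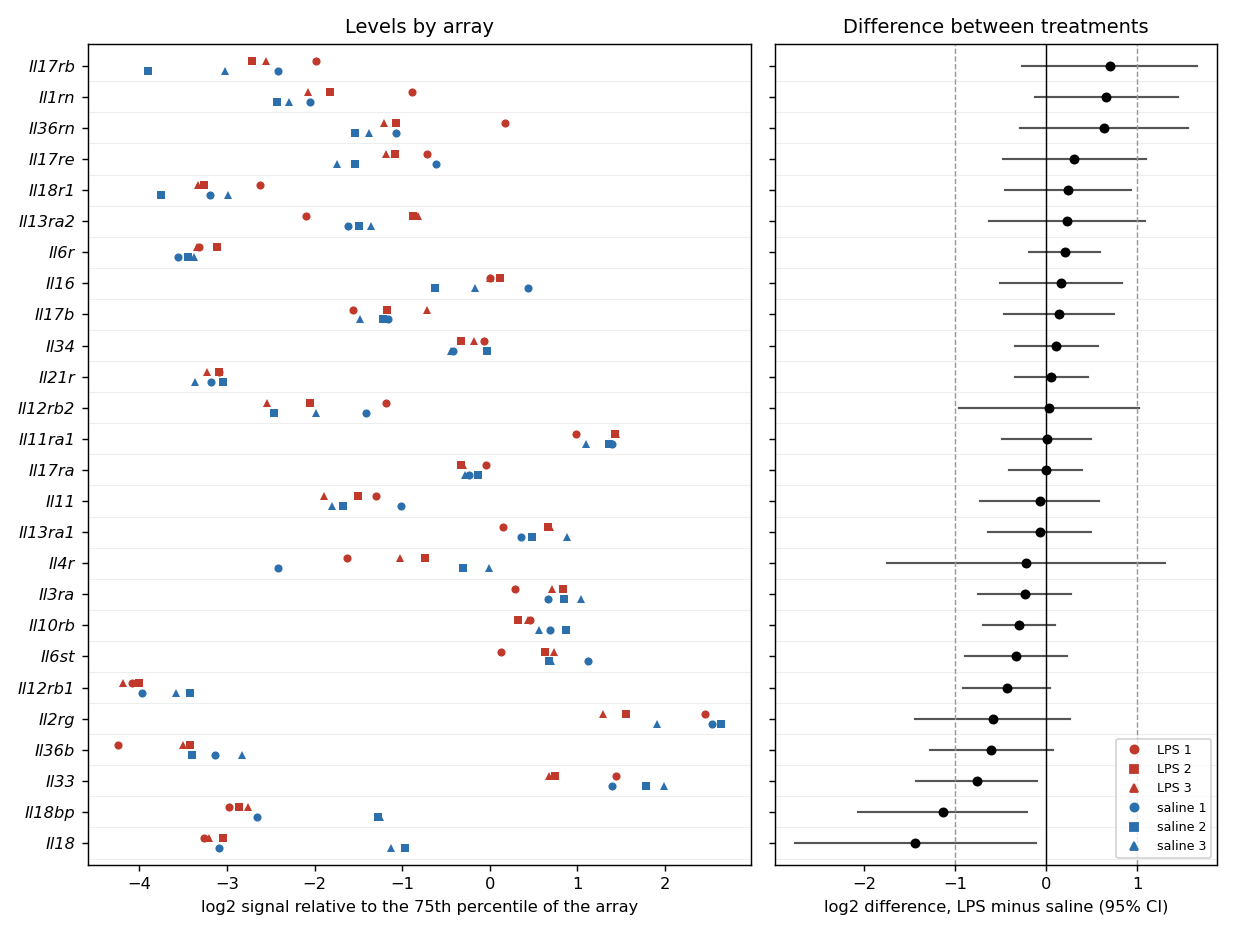
Levels of the 26 interleukin genes measured on all arrays (left, log2 signal relative to the 75th percentile, 1 symbol per array) and the difference LPS minus saline with its 95% confidence interval from limma (right; dashed lines at 2-fold). Intervals of Il18, Il18bp and Il33 lie below 0, and the Il18 and Il18bp symbols of saline replicates 2 and 3 lie apart from the other 4.

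Among the IL-1 family ligands, Il18 and Il33 had the lowest values relative to saline. Il18, an interleukin stored as a precursor and released by caspase-1, had levels of -3.26, -3.04 and -3.20 in the LPS group and -3.10, -0.97 and -1.13 in the saline group. Saline replicates 2 and 3 were high, whereas saline replicate 1 lay within the range of the LPS arrays, so the groups overlapped. The difference was -1.44 ± 0.55 (SE), with an adjusted p of 0.284 in limma.

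Il18bp, the secreted protein that binds and neutralises IL-18, followed the same arrays. Its levels were -2.98, -2.87 and -2.76 in the LPS group and -2.65, -1.28 and -1.25 in the saline group, without overlap. The difference was -1.14 ± 0.39 (SE; adjusted p = 0.271 in limma), and again saline replicate 1 lay next to the LPS arrays. Il18r1, which encodes the IL-18 receptor, had levels of -2.63, -3.27 and -3.34 against -3.20, -3.76 and -2.98, with overlap and a difference of 0.24 ± 0.29. The high Il18 and Il18bp values thus stood on the pair of arrays that carried the adrenal markers, of which 6 of 8 cortex and 7 of 8 medulla genes were also lower at 2-fold in the LPS group. The part of the adrenal transcripts in these values was not tested. Leaving out both arrays removes the high values themselves and sets the 3 LPS arrays, which alone then give the spread, against saline replicate 1. The difference was then -0.07 for Il18 and -0.22 for Il18bp, and 0 members were called lower. Leaving out saline replicate 1 in turn removes the saline array on which both genes lie with the LPS arrays, so the p-values that follow depend on that choice and support no difference between treatments. The differences were then -2.12 and -1.60, with adjusted p-values in limma of 0.00863 and 0.0212 (Il1rapl2 also passed), and 0.918% of all gene names then passed an adjusted p of 0.05. Il18 lost an unadjusted p under 0.05 without any 1 of the other 5 arrays, and Il18bp without any 1 of them but LPS replicate 3. Il1rapl2, a receptor-like member of the family known from neurons, showed the same arrays high without being well above background on any, with -6.99, -6.89 and -7.34 against -6.61, -4.99 and -5.37.

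**Figure D3:**
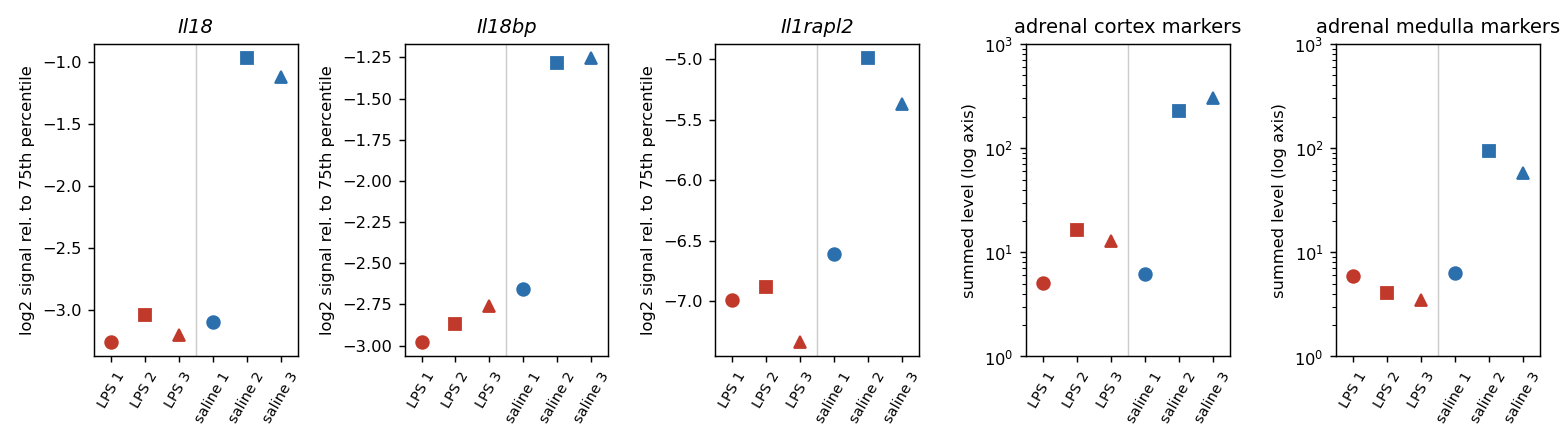
Levels of Il18, Il18bp and Il1rapl2 (log2 signal relative to the 75th percentile) and summed levels of 8 adrenal cortex and 8 adrenal medulla markers (log axis) on each array. In all 5 panels saline replicates 2 and 3 are above the other 4 arrays, and saline replicate 1 sits near the LPS arrays; Il1rapl2 was well above background on none.

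The sequences before the transcription start of Il18 and Il18bp are shown because the 2 genes moved together across the arrays. They are the 250 bases upstream of the start in RefSeq (GRCr8), written 5′ to 3′, for Il18 at chr8:59801822-59802071 on the plus strand and for Il18bp at chr1:165786956-165787205 on the minus strand. Capitals mark AAGGTCA on either strand, a half-site recognised by the steroidogenic nuclear receptor SF-1. It was the only motif searched for.
Il18: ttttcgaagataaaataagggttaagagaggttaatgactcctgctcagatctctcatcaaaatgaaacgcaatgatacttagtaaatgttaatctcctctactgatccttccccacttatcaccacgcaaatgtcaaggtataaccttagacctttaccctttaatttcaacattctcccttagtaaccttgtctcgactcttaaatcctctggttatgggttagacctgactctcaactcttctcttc
Il18bp: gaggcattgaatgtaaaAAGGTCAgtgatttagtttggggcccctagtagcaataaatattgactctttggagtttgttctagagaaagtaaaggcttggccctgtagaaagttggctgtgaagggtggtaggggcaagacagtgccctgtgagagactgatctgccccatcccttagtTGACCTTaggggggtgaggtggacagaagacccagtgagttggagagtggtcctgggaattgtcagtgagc
The window of Il18bp held this motif 2 times and that of Il18 did not hold these letters. Among 53 members with an entry there, 5 held it (Il18bp, Il1rapl1, Il20, Il21r and Il36b), against 3.77% of 27457 promoters of the same length. A match of letters is a description and does not show binding.

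Il33, an alarmin held in the nucleus of endothelial, epithelial and stromal cells, had levels of 1.45, 0.74 and 0.67 in the LPS group and 1.39, 1.78 and 1.98 in the saline group. LPS replicates 2 and 3 were the lowest, and LPS replicate 1 lay just above saline replicate 1. The difference was -0.77 ± 0.28 (SE; adjusted p = 0.276 in limma). The unadjusted p was 0.0292, and it was over 0.05 without LPS replicate 2 or 3 or saline replicate 2 or 3. Without LPS replicate 1 the difference was -1.01, past 2-fold. Il36b, a member of the IL-36 group, was measured at -4.25, -3.42 and -3.50 against -3.14, -3.40 and -2.83, without overlap, with a difference of -0.60 ± 0.28 (adjusted p = 0.347 in limma).

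The other measured ligands differed by little. Il34, which signals through the macrophage growth factor receptor Csf1r, had levels of -0.06, -0.33 and -0.18 in the LPS group and -0.42, -0.03 and -0.45 in the saline group. These overlapped, and the difference was 0.11 with a 95% interval of -0.35 to 0.56. Csf1r itself, no interleukin gene but the receptor on which IL-34 acts, was at -1.06, -1.08 and -1.02 against -1.52, -1.68 and -1.51, higher on each LPS array by 0.51 ± 0.15 on average (adjusted p = 0.271 in limma). The summed level of 12 macrophage markers was 11.8 to 12.1 in the LPS group and 9.35 to 11.1 in the saline group. Of the 12, 1 (Mrc1) was higher at 2-fold and 4 at an unadjusted p under 0.05, beside 0.539% and 2.22% of all gene names. Il16, which attracts CD4-bearing cells, was at 0.01, 0.12 and 0.00 against 0.44, -0.62 and -0.16, with a difference of 0.16 ± 0.28. The saline arrays of Il16 spread around all 3 LPS arrays. Il15 was at -4.01, -3.91 and -3.63 against -4.30, -3.47 and -4.34, with a difference of 0.18 ± 0.28 that turned to -0.13 under another background correction. Il11 and Il17b had overlapping groups, with differences of -0.07 ± 0.27 and 0.14 ± 0.25.

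Several of the measured receptors are signaling chains shared between interleukins. Il2rg, the gamma chain used by IL-2, IL-4, IL-7, IL-9, IL-15 and IL-21, was at 2.45, 1.56 and 1.30 in the LPS group and 2.54, 2.64 and 1.90 in the saline group. LPS replicates 2 and 3 were the lowest of the 6 and LPS replicate 1 lay among the saline arrays. The difference was -0.59 ± 0.36 (adjusted p = 0.516 in limma), and it turned to 0.09 when LPS replicate 1 alone was set against the saline arrays on its slide row. Markers of T cells, the cells best known for this chain, included 3 of 8 that were well above background on no array (Cd3e, Cd2 and Cd5), and their summed level was 1.48 to 1.89 in the LPS group and 1.32 to 1.88 in the saline group.

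Il6st, the gp130 chain of the IL-6 family, was at 0.13, 0.63 and 0.74 against 1.12, 0.68 and 0.70, with overlap and a difference of -0.34 ± 0.24. Il10rb, shared by IL-10, IL-22 and the lambda interferons, was at 0.46, 0.32 and 0.43 against 0.69, 0.87 and 0.56. Each LPS array was below each saline array, by -0.30 ± 0.17 on average (adjusted p = 0.456 in limma), although without scaling between arrays the difference was 0.08. Il17ra, the common chain of the IL-17 receptors, was at -0.04, -0.33 and -0.31 against -0.24, -0.13 and -0.28, and its difference of -0.01 had a 95% interval of -0.41 to 0.40. Il12rb1, a chain of the IL-12 and IL-23 receptors, was lower without overlap by -0.44 ± 0.20 (adjusted p = 0.335 in limma).

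Among the ligand-specific chains, Il6r was at -3.32, -3.11 and -3.34 in the LPS group and -3.56, -3.44 and -3.38 in the saline group. It was the only measured member whose LPS values were all above the saline values, by 0.20 ± 0.16 (adjusted p = 0.687 in limma), and the sign turned with normexp (-0.02) or no background subtraction (-0.05). Il11ra1 was at 0.98, 1.43 and 1.44 against 1.40, 1.36 and 1.09, and its difference of 0.00 had a 95% interval of -0.48 to 0.49. Il17rb, a receptor of IL-17B and IL-25, was at -1.99, -2.72 and -2.55 against -2.42, -3.90 and -3.02. The group means differed by 0.70 ± 0.40 (adjusted p = 0.483 in limma), the largest positive difference among the 26, with overlap through saline replicate 1.

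Il4r, the IL-4 receptor chain, varied most among the measured receptors. Its levels were -1.63, -0.74 and -1.03 in the LPS group and -2.42, -0.30 and -0.01 in the saline group, so that saline replicate 1 was the lowest of all arrays and saline replicates 2 and 3 the highest. The difference was -0.22 ± 0.64, and it was 1.29 when the LPS arrays were set against saline replicate 1 alone. A second Il4r probe was at -3.16, -2.55 and -2.69 against -2.92, -2.51 and -2.30, with a difference of -0.22 ± 0.25, and there saline replicate 1 was not the lowest array. Il13ra1, a partner chain of Il4r, differed by -0.07 ± 0.24, and its second probe, well above background on 3 LPS arrays and 1 saline array, by 1.15 ± 0.65. Il3ra differed by -0.24 ± 0.21.

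The inhibitors Il1rn and Il36rn, antagonists at the IL-1 and IL-36 receptors, were higher on LPS replicate 1. Il1rn was at -0.89, -1.83 and -2.08 in the LPS group and -2.05, -2.43 and -2.30 in the saline group, and Il36rn was at 0.18, -1.07 and -1.20 against -1.07, -1.53 and -1.38. In both genes LPS replicate 1 stood above all other arrays, and LPS replicate 3 lay among the saline arrays. The differences were 0.66 ± 0.33 for Il1rn (adjusted p = 0.381 in limma) and 0.63 ± 0.39 for Il36rn (adjusted p = 0.526 in limma). A second Il36rn probe was well above background on no array.

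Slide position was not balanced between treatments. The slide row of LPS replicate 1 also held all 3 saline arrays, and the other row held only LPS replicates 2 and 3. Within the row that held both treatments, 6 members were higher at 2-fold and an unadjusted p under 0.05 (Il1rn, Il36rn, Il2ra, Il1rl1, Il17rd and Il20) and 1 was lower (Il36b), beside 4.9% and 0.175% of all gene names. This set 1 LPS array against 3 saline arrays, with its spread assumed like theirs. Il1rn was then higher by 1.37 ± 0.32 and Il36rn by 1.51 ± 0.33, with adjusted p-values in limma of 0.372 and 0.353. Il2ra, a chain of the high-affinity IL-2 receptor, was well above background on LPS replicate 1 only, at -3.23, against -5.98 and -6.72 on the other LPS arrays and -4.42, -5.68 and -5.26 in the saline group. Il1rl1, Il17rd and Il20 reached -4.68, -4.82 and -4.70 on LPS replicate 1 without being judged well above background, and were at or below -6.01 elsewhere. Row and treatment cannot be told apart for LPS replicates 2 and 3.

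**Figure D4:**
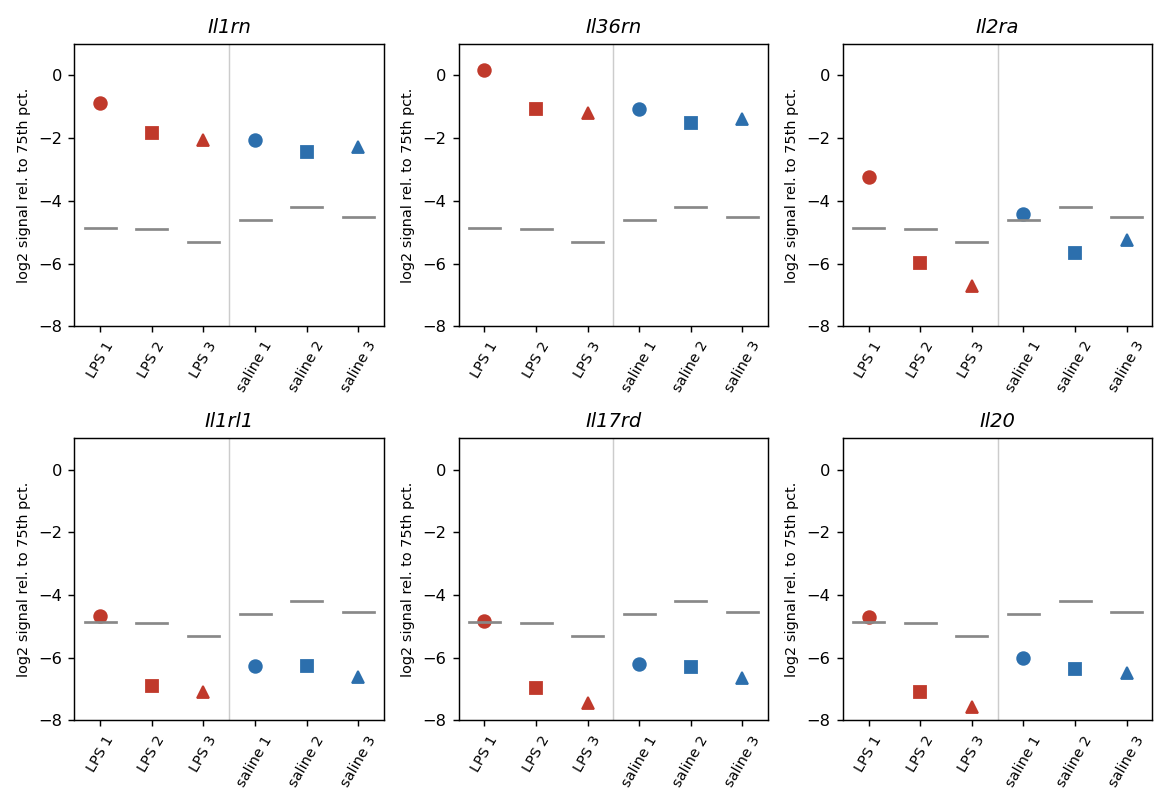
The 6 genes called higher within the slide row that held both treatments, with 1 symbol per array (vertical axis, log2 signal scaled to the 75th percentile); grey bars mark the lowest level judged well above background on that array. LPS replicate 1 is the highest array in all 6 panels, and Il1rn and Il36rn are well above the grey bars on every array.

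The replicate 1 arrays of both treatments resembled each other. Among the 26 measured members, both replicate 1 arrays lay above the other 4 for Il11, Il12rb2, Il17rb and Il17re (4 of 26, or 15.4%) and below them for Il13ra1, Il13ra2, Il3ra and Il4r (15.4%). Over all gene names measured on all arrays these shares were 29.4% and 16.6%. The second Il4r probe also had both replicate 1 arrays lowest, whereas the second probes of Il3ra and Il13ra1 did not. Il17re, an epithelial receptor of IL-17C, was at -0.71 and -0.61 on the replicate 1 arrays and between -1.75 and -1.08 on the other 4. Il13ra2, a decoy receptor of IL-13, was at -2.10 and -1.62 on the replicate 1 arrays and between -1.49 and -0.82 on the others. On the same arrays the summed level of 11 epithelial markers, a list drawn up after these values had been seen, was 56.4 for LPS replicate 1 and 54.0 for saline replicate 1, against 21.5 to 34.7 on the other 4. LPS replicate 1 had the lowest granulosa cell level, 15.7. The part of tissue composition in these levels was not tested.

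**Figure D5:**
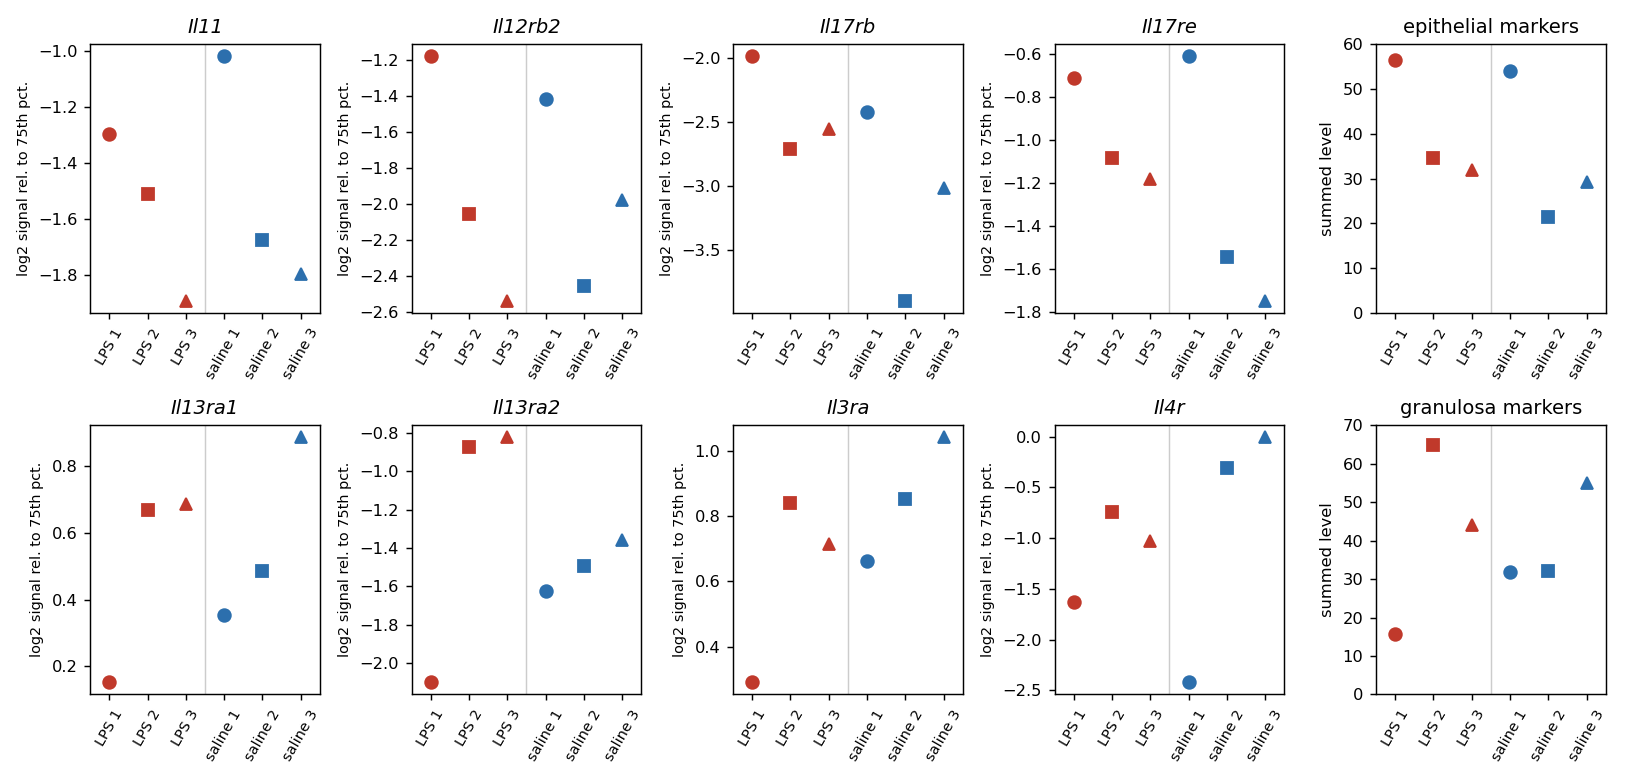
Members for which both replicate 1 arrays lay above (top) or below (bottom) the other 4 (vertical axis, log2 signal scaled to the 75th percentile), with summed levels of epithelial and granulosa cell markers in units of the 75th percentile. Circles mark replicate 1; epithelial markers are at 56.4 and 54.0 on these arrays and at or below 34.7 elsewhere.

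Genes that work with the interleukins under other names were examined beside them. Of 47 listed partner genes (related cytokines and receptors, adaptors and kinases, Jak-Stat genes and processing enzymes) 42 had a probe and 32 were measured on all arrays. At 2-fold 0 passed in either direction, with 0 at an adjusted p under 0.05 in limma. At an unadjusted p under 0.05, 2 of the 42 were higher (Ctf1 and Ebi3) and 4 lower, among them Lifr, Myd88 and Nlrp3. Over all gene names 2.22% were higher and 13.7% lower at this p. The median difference of the partner genes was 0.02. Ebi3, a subunit of IL-27 and IL-35, was at -2.01, -1.66 and -1.85 in the LPS group and -2.03, -2.74 and -2.48 in the saline group. Myd88, the adaptor of IL-1 and Toll-like receptors, was at 0.04, -0.16 and -0.21 against 0.03, 0.67 and 0.59. The high Myd88 values were again those of saline replicates 2 and 3. Lifr and Nlrp3 were well above background on no array.

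Other immune cell markers gave 0 genes passing 2-fold. At an unadjusted p under 0.05 without overlap, Cpa3 of mast cells was higher by 0.93 ± 0.26 and Nkg7 of natural killer cells by 0.83 ± 0.30 (adjusted p = 0.271 and 0.276 in limma). Lower by the same criterion were Ms4a2 of mast cells, Klrd1 and Gzmb of natural killer cells, Ngp of neutrophils, and Cd3e and Cd2 of T cells. These lower markers were well above background on no array, where 46% of gene names were lower at this p. Of the natural killer cell markers 4 of 6 were well above background on no array (Klrb1a, Ncr1, Klrd1 and Gzmb), as were Ms4a2 of 7 mast cell markers and Elane and Ngp of 5 neutrophil markers. Markers of B cells, endothelium and kidney also held 0 genes called in either direction at 2-fold.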

How the data were processed

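Ovarian RNA from LPS-treated and saline-treated pups was hybridised to 1-colour Agilent arrays, 3 per treatment. The authors deposited the spot intensity values and flags of Agilent Feature Extraction 10.5.1.1 and a table of intensity values equal to the processed signal within 0.497%. The submitters' processing notes also name lumi. Groups and replicate numbers came from the sample labels. Log2 processed signal was averaged over unflagged spots, the 75th percentile of the array was subtracted, and limma 3.58.1 in R 4.3.3 compared the treatments over all 30367 probes with Benjamini-Hochberg adjustment. A probe counted as well above background where over 0.5 of its spots were flagged so, and at least 2 unflagged arrays per group were required. The number of arrays and the signal over background limit the precision. The gene name column was empty, and RefSeq accessions matched to the GRCr8 table named 17998 probes, while 12369 kept the name in the files. Il1r1 was not analysed here.

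Deviations from the group means were correlated between arrays of the same number (r = 0.298, 0.215 and 0.254 over all probes), and the replicate number was therefore used as a block in an alternative. Over the probes measured on all arrays, LPS replicate 2 correlated more with saline replicate 3 (r = 0.406) than with saline replicate 2 (r = 0.250). No label ties the numbers to animals or litters.

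The members, the partner genes and the marker lists were chosen with earlier results of these data known. Genes named with their values are those with an unadjusted p under 0.05 and groups that did not overlap, the 10 members with the highest signal, a list of well-known interleukin genes and 3 genes listed in the supplement of the study (Il1rn, Il17rb and Il22), 25 in all. Il36b, Il36rn, Il12rb1, Il17re, Il13ra2, Il1rapl2, Il2ra and other members outside this rule were named after their values were seen. The values of 1 partner gene are not reported here. Summed marker levels add the unlogged levels of a list. The procedure was tested on simulated data. Alternatives covered background correction, scaling, the deposited table, flagged and dim spots, the test, the probe of a gene, the slide row, the replicate number and arrays left out.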

Additional observations from a re-analysis of the deposited data

How the results depend on the processing

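With the replicate number as a block, 3 members were lower and 0 higher, and the block changed no call of the 2-fold criterion. Of the measured members it moved the calls at an unadjusted p under 0.05 from 0 higher and 3 lower to 2 higher and 2 lower. Its values for Il18 and Il18bp were adjusted p = 0.200 and 0.177 in limma.

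The count of 3 lower members was 1 with normexp, with quantile normalization, with the methods' t-test, under the slide row block and within the slide row that held both treatments. It was 0 without background subtraction, without normalization between arrays and with saline replicates 2 and 3 left out together. The count of 0 higher members was 3 without normalization between arrays, 6 under the slide row block or within the row, and 1 with saline replicates 2 and 3 left out. Leaving out each array in turn gave 1 to 5 lower and 0 to 1 higher members. The 5 lower members came without LPS replicate 1 (Il1r2, Il1rapl2, Il20, Il2ra and Il33), 2 without LPS replicate 3, and a single one when either replicate 2 array or the third saline array was omitted. Of the 5, only Il33 was well above background on the arrays used, since Il2ra was so on LPS replicate 1 alone and the others on none. The share of all gene names at 2-fold with single arrays left out is not given here. The 1 higher member (Il17rb) came without saline replicate 1, where Il18, Il18bp and Il1rapl2 also passed an adjusted p of 0.05 in limma. The median difference of the members measured on all arrays was 0.37 without normalization and -0.077 under the slide row block or within the row, and -0.04 to 0.05 with single arrays left out.

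Signs turned mostly for genes with small differences, but also for Il2rg, which was at -0.59 in the main fit. With normexp and without background subtraction, Il15 was at -0.13 and -0.11 and Il6r at -0.020 and -0.046. Without normalization between arrays Il10rb was at 0.076, Il13ra1 at 0.30, Il17ra at 0.37, Il3ra at 0.14, Il4r at 0.15 and Il6st at 0.040. With the 75th percentile over measured probes Il17ra was at 0.035. Under the slide row block, and within the row, Il11ra1 was at -0.30, Il17ra at 0.18 and Il2rg at 0.094. With the median over the probes of a gene Il13ra1 was at 0.54. Without saline replicates 2 and 3, Il11ra1 was at -0.11, Il13ra1 at 0.15, Il16 at -0.39, Il17ra at 0.013 and Il4r at 1.29. With single arrays left out, Il11ra1 ranged from -0.092 to 0.15, Il13ra1 from -0.18 to 0.10, Il16 from -0.092 to 0.44, Il17ra from -0.10 to 0.046 and Il4r from -0.98 to 0.23. The cause was not tested. Of the 17 named genes with a fold change, 293 values over the alternatives kept their direction and side of the criterion (2-fold with an unadjusted p under 0.05), 35 turned sign, 23 lost the criterion and 6 gained it. Only Il18 and Il18bp met the criterion in the main fit, so all 23 losses were theirs, over 21 alternatives for each gene. Of the 23, 3 kept a p under 0.05 and lost only the 2-fold difference.

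The 35 members on no array are bounded by the background of the arrays, and 3 arrays per treatment resolve only large differences. LPS replicates 2 and 3 share a slide row with no saline array. Saline replicates 2 and 3 carry the adrenal markers. The names rest on accessions alone, so interleukin probes without a matched accession were not counted.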
